A study of Macaca mulatta with 12 samples.

Results

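MAOA and SLC18A2 were each read by more than 1 probe set on a rhesus expression array, and all of these probe sets were followed across the 4 hormone groups of the series. The probe-to-gene table assigned 3 probe sets to MAOA (MmugDNA.21143.1.S1_at, MmuSTS.1455.1.S1_at and Mmu.15041.1.S1_at, in order of mean signal) and 2 to SLC18A2 (MmugDNA.37902.1.S1_at and MmugDNA.36644.1.S1_at), 5 of the 52766 probe sets left once control probe sets were removed. All 5 reached the filter on dim signals and stood among the 26383 that were tested, at the 93.6th, 85.8th and 73.5th percentile of mean signal for MAOA and the 95.5th and 83.8th for SLC18A2. The RNA came from a block of tissue holding the dorsal raphe, a nucleus of the brainstem rich in serotonin neurons, of 12 female rhesus macaques (Macaca mulatta), with 1 animal per array and 3 animals in each group. For 1 month Silastic capsules under the skin had supplied estrogen, progesterone, or estrogen plus progesterone (called both hormones from here), and the fourth group had received placebo. OVX, taken to mean ovariectomized, stands only in the titles of the placebo animals. Titles in the progesterone group spell out progesterone next to EP, descriptions there give P, and the group was read as progesterone alone.

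Serotonin, noradrenaline and dopamine are packed into synaptic vesicles by the vesicular monoamine transporter VMAT2, which SLC18A2 encodes, in exchange for protons pumped into the vesicle. Monoamine oxidase A, the product of MAOA, sits on the outer mitochondrial membrane and oxidizes monoamines in the cytoplasm. In the brain the transporter marks monoamine neurons, whereas the oxidase is found in several cell types and is abundant in noradrenaline neurons. MAOA lies on chromosome X next to MAOB, which encodes the other monoamine oxidase, and SLC18A2 lies on chromosome 9, in the annotation of the rhesus assembly T2T-MMU8v2.0. MAOB, DDC and SLC6A4 (the serotonin transporter) had no probe set under their names in the table and were not analysed here.

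Median intensity lay between 71.1 and 98.7 on the 12 arrays, and rank correlations between arrays lay between 0.915 and 0.959. A principal component with 23.5% of the variance set 3 arrays apart. The first animal of the placebo, the estrogen and the both-hormone group lay at -51.6, -44.9 and -44.0, and the other 9 between -1.64 and 29.0. Arrays said below to stand apart are these 3. Scores on the next component were -14.1, -46.3 and -54.5 in the animals given progesterone alone, and 0.50 to 20.4 elsewhere. That component thus separated the progesterone group from the rest, and its part in the progesterone comparisons was not tested. The block carried signal for serotonin neuron identity: the transcription factors FEV and GATA3 had mean log2 intensities of 9.47 and 9.31, and TPH2, the serotonin-synthesizing enzyme of the brain, 7.31. LMX1B and HTR1A, at 3.75 and 5.07, lay below the highest mean of 17 tag control probe sets (6.41). TH and DBH, enzymes of catecholamine synthesis, stood at 8.51 and 6.76. In such a block, fewer cells of a type and less RNA per cell cannot be told apart.

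MAOA had its highest group mean under estrogen on all 3 probe sets, and none of the differences passed the test. On the brightest probe set the intensities were 824, 850.2 and 762 in the placebo animals, 793, 1028 and 1367 with estrogen, 698, 806 and 1053 with both hormones, and 921, 624 and 768 with progesterone alone. The placebo animals lay close together, the third estrogen animal stood above all others, and the 4 groups overlapped. After normalization the group means of log2 intensity were 10.00 ± 0.32 (SD, n = 3) with estrogen, 9.72 ± 0.25 with both hormones, 9.65 ± 0.09 with placebo and 9.59 ± 0.27 with progesterone alone, and no neighbours in this order differed beyond their spread.

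Against placebo, MAOA on this probe set was higher with estrogen by 0.35 (log2 difference, SE 0.20, 95% confidence interval from -0.10 to 0.80), a fold of 1.27 with an interval from 0.934 to 1.74. The limma adjusted p was 0.9997, and limma called 0% of all tested probe sets in this comparison. Both hormones differed from placebo by 0.07 (interval from -0.38 to 0.51) and progesterone alone by -0.06 (from -0.51 to 0.39), with limma adjusted p of 0.999 and 0.958. The estrogen value moved with single animals: it was 0.18 without the third estrogen array, 0.50 without the first, and 0.51 without the 3 arrays that stood apart. Estrogen minus progesterone was 0.41 (SE 0.20, interval from -0.04 to 0.86, limma adjusted p = 0.554).

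The other MAOA probe sets gave similar differences. On the second, MmuSTS.1455.1.S1_at, the intensities were 447, 381 and 430.3 with placebo, 478, 482 and 698.5 with estrogen, 356, 389 and 460.2 with both hormones, and 332, 358 and 557 with progesterone alone. All 3 estrogen animals lay above all placebo animals and above all animals given both hormones, whereas the third progesterone animal reached into the estrogen range. The log2 difference of estrogen from placebo was 0.37 (SE 0.22, interval from -0.12 to 0.86, limma adjusted p = 0.9997), and that of both hormones from estrogen was -0.43 (SE 0.22, interval from -0.92 to 0.06, limma adjusted p = 0.9999). Separation of this kind was common on the array: estrogen lay wholly above placebo for 3.56% of the tested probe sets, and both hormones lay wholly below estrogen for 4.05%. Without the third estrogen array these differences were 0.21 and -0.27.

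On the third, Mmu.15041.1.S1_at, placebo animals had intensities of 190.4, 207 and 221, estrogen animals 205, 234 and 385, animals with both hormones 132, 237 and 293, and progesterone animals 253, 125 and 245. This probe set varied more between animals of a group than most: its pooled SD within groups was 0.50 on the log2 scale, at the 88.1st percentile of tested probe sets, beside 0.25 and 0.28 for the brighter MAOA probe sets and a median of 0.28 over all. The first animal with both hormones and the second progesterone animal stood far below the rest. Estrogen differed from placebo by 0.34 (SE 0.36, interval from -0.45 to 1.14, limma adjusted p = 0.9997), and by 0.08 without the third estrogen array.

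Neither the labels nor the data establish that same-numbered arrays are paired. By replicate number, both hormones minus estrogen was -0.17, -0.34 and -0.34 on the brightest MAOA probe set, -0.44, -0.30 and -0.53 on the second, and -0.71, -0.01 and -0.36 on the third. All were negative, but the probe sets read the same animals and are not separate replicates. Both hormones minus placebo had mixed signs on each MAOA probe set (-0.15, -0.10 and 0.45 on the brightest). For SLC18A2, both hormones minus estrogen was 0.04, -0.37 and -0.85 on the brighter probe set and 0.08, 0.83 and -0.34 on the dimmer. With the replicate number as a block the limma adjusted p of both hormones minus estrogen stayed at 0.9999 on each MAOA probe set.

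Marker lists of other cells are set here beside these MAOA values, and 0 of their members passed the limma test. The 6 cerebellar neuron markers on the array, of 8 listed, summed to intensities of 994 to 1205 in placebo animals and 1237 to 2833 with estrogen, with the highest sum in the second estrogen animal, and to 995 to 2051 with both hormones and 921 to 1540 with progesterone alone. The Purkinje cell gene PCP2 among them had a mean log2 intensity of 4.23, below the highest tag control mean (6.41). The 4 astrocyte markers on the array, of 6 listed, summed to 13234 to 15709 in placebo animals, 13474 to 18188 with estrogen, 17229 to 19389 with both hormones and 12531 to 16205 with progesterone alone. In estrogen minus placebo all 5 tested cerebellar markers were higher (median log2 difference 0.56), and 2 of 4 astrocyte markers were (median -0.02). Over all tested probe sets 48.7% were higher (median -0.01). The part of these markers in the MAOA values was not tested.

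**Figure D1:**
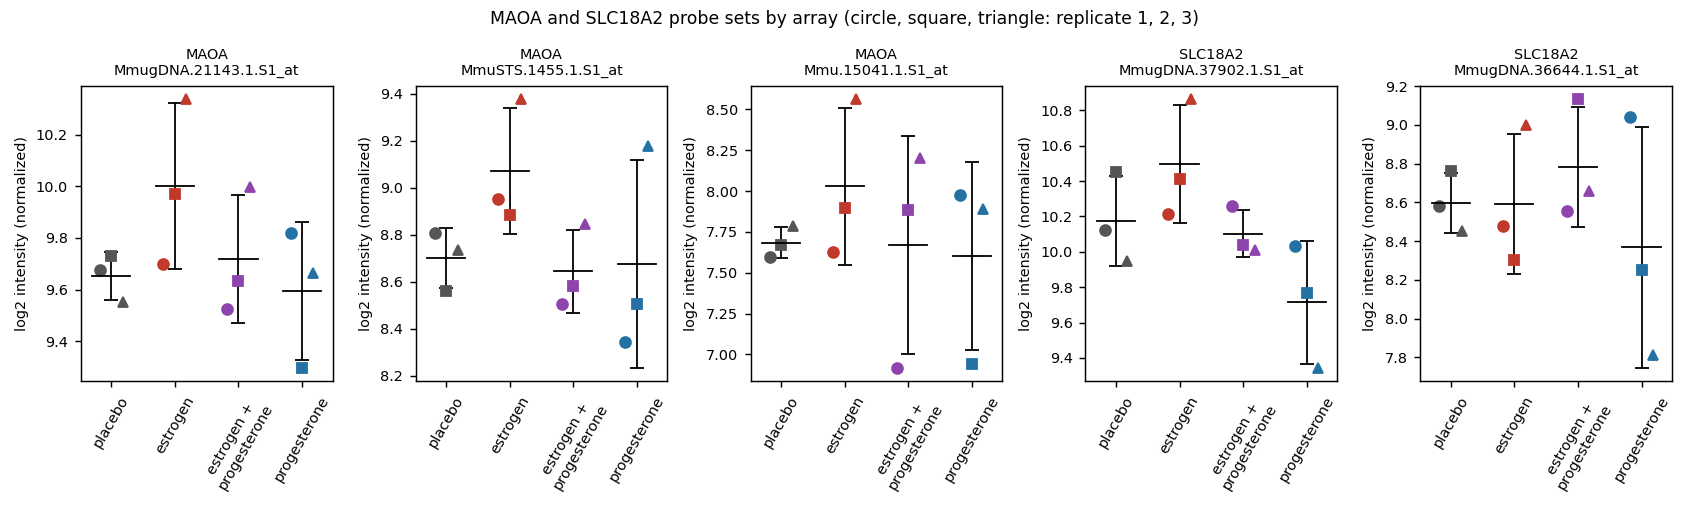
Normalized log2 intensity (y axis, scale differs by panel) of each MAOA and SLC18A2 probe set in the 4 groups (x axis). Symbols are single animals (1 symbol shape per replicate number), horizontal lines are group means and bars are SD (n = 3); the third estrogen animal is the highest point in all 3 MAOA panels and in the brighter SLC18A2 panel, and the third progesterone animal is the lowest in both SLC18A2 panels.

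SLC18A2 had its highest mean under estrogen and its lowest under progesterone alone on the brighter probe set, and no comparison passed the test. The intensities were 1135, 1381 and 1002 with placebo, 1141, 1414 and 1944 with estrogen, 1173, 1073 and 1061 with both hormones, and 1067, 867 and 623 with progesterone alone. All 3 estrogen animals stood above all 3 progesterone animals, and every other pair of groups overlapped. The group means of log2 intensity were 10.50 ± 0.33 (SD, n = 3) with estrogen, 10.17 ± 0.26 with placebo, 10.10 ± 0.13 with both hormones and 9.71 ± 0.35 with progesterone alone, and no neighbours in this order passed the test.

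The widest gap, estrogen minus progesterone, was 0.78 on the log2 scale (SE 0.22, interval from 0.29 to 1.27), a fold of 1.72 with an interval from 1.23 to 2.41. Its unadjusted limma p was 0.00463 and its adjusted p 0.282, so it did not pass across the array. In this comparison limma called 35 of 26383 probe sets (0.133%), 9.85% had an unadjusted p under 0.05, and estrogen lay wholly above progesterone for 7.45%. Leaving out 1 array at a time gave differences between 0.60, without the third estrogen array, and 0.94, without the first progesterone array. Without the 3 arrays that stood apart the difference was 0.91 (limma adjusted p = 0.213), and over all alternatives the adjusted p lay between 0.164 and 0.529.

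Each hormone alone lay to a different side of placebo for this probe set. Estrogen differed from placebo by 0.32 (SE 0.22, interval from -0.17 to 0.81) and progesterone by -0.46 (SE 0.22, interval from -0.95 to 0.03), with limma adjusted p of 0.9997 and 0.537. The animals with both hormones lay close to placebo, at -0.07 (interval from -0.56 to 0.42, limma adjusted p = 0.999). Set against each hormone alone, both hormones differed by -0.39 from estrogen and by 0.39 from progesterone (limma adjusted p = 0.9999 and 0.539). Single animals carried part of this: estrogen minus placebo was 0.14 without the third estrogen array, progesterone minus placebo was -0.28 without the third progesterone array, and both hormones minus estrogen was -0.60 without the 3 arrays that stood apart.

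Over the 6 animals with progesterone, alone or combined, against the 6 without it, SLC18A2 on this probe set was lower by a log2 of -0.43 (SE 0.16, interval from -0.77 to -0.08, unadjusted p = 0.0198 and adjusted p = 0.725 in limma). Over the 6 animals with estrogen against the 6 without it, the difference was 0.36 (SE 0.16, interval from 0.01 to 0.70, unadjusted p = 0.0450 and adjusted p = 0.652 in limma). The interaction of the hormones was 0.06 (SE 0.32, adjusted p = 0.974 in limma). On the dimmer SLC18A2 probe set these 3 values were -0.02, 0.20 and 0.42, with limma adjusted p of 0.997, 0.864 and 0.889. For MAOA on its brightest probe set the same 3 values were -0.17, 0.24 and -0.22, with limma adjusted p of 0.898, 0.747 and 0.925.

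The dimmer SLC18A2 probe set did not follow this order. Its intensities were 380.2, 438 and 355 with placebo, 348, 318 and 533 with estrogen, 367, 568.5 and 403 with both hormones, and 534, 301 and 233 with progesterone alone, and all groups overlapped. The highest mean log2 intensity was 8.78 ± 0.31 (SD, n = 3) with both hormones, followed by 8.60 ± 0.15 with placebo, 8.59 ± 0.36 with estrogen and 8.37 ± 0.62 with progesterone alone. Estrogen minus progesterone was 0.22 (SE 0.30, interval from -0.42 to 0.87, limma adjusted p = 0.868), and it was -0.05 without the third progesterone array. Progesterone minus placebo was -0.23 (SE 0.30, interval from -0.88 to 0.42, limma adjusted p = 0.861), and it was 0.05 without the same array. Progesterone alone gave the lowest mean on both SLC18A2 probe sets, and the third progesterone animal had the lowest value of all 12 on both.

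**Figure D2:**
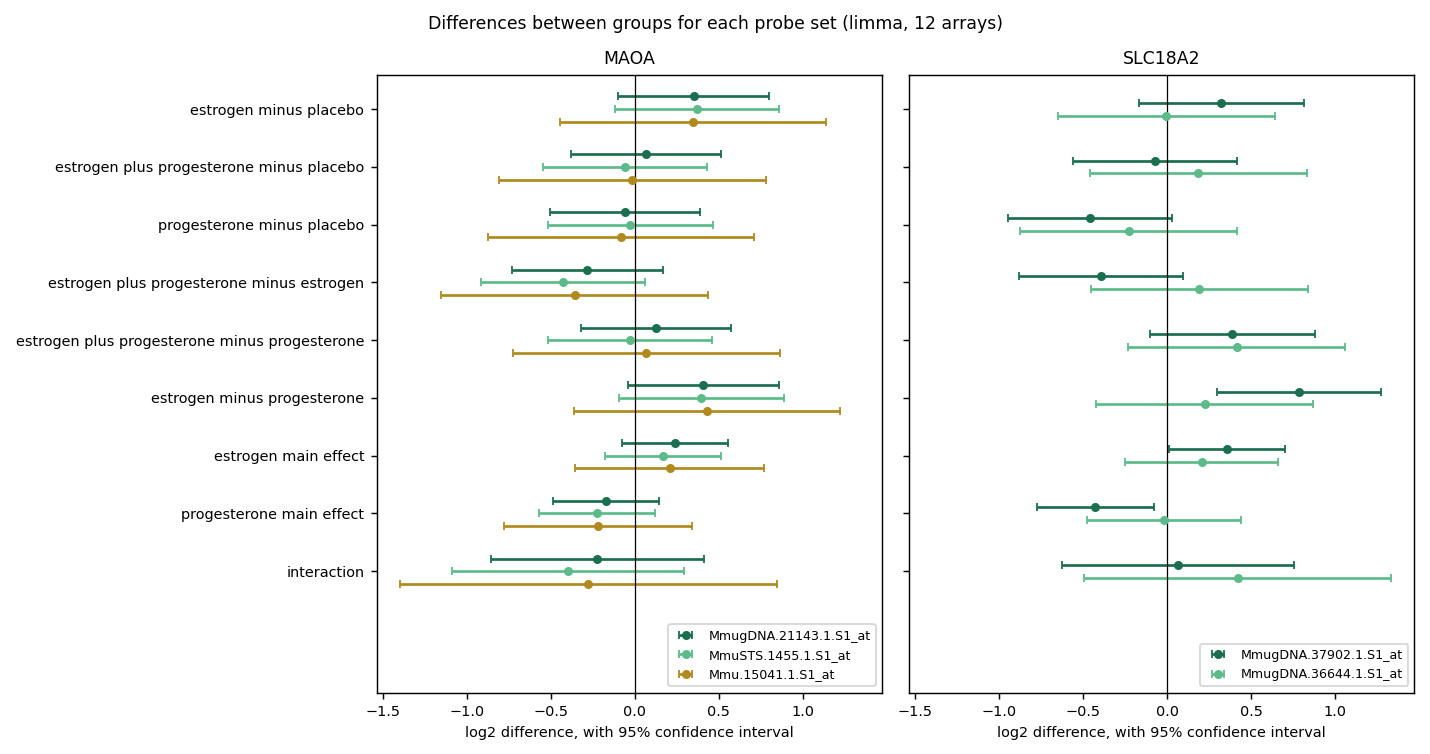
Log2 difference (x axis) with its 95% confidence interval for every comparison (y axis), 1 colour per probe set, for MAOA (left) and SLC18A2 (right). The 3 MAOA probe sets lie between 0.34 and 0.37 for estrogen minus placebo, while for estrogen minus progesterone the SLC18A2 probe sets lie at 0.78 and 0.22.

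Over the 9 contrasts, limma called 0 of the 5 member probe sets. Across the array it also called 0% in both hormones minus placebo, both hormones minus estrogen, both main effects and the interaction, 0.133% in progesterone minus placebo and 0.0834% in both hormones minus progesterone. The unadjusted p was under 0.05 for 1 member, the brighter SLC18A2 probe set, in estrogen minus progesterone, in the main effect of estrogen and in that of progesterone, where 9.85%, 7.63% and 6.25% of the array had such a p. It was under 0.05 for 0 members in estrogen minus placebo, both hormones minus placebo, progesterone minus placebo, both hormones minus estrogen, both hormones minus progesterone and the interaction, beside 2.65%, 3.85%, 9.87%, 2.98%, 11.4% and 6.4% of the array. A moderated F test over the 4 groups called 0.0758% of the array and none of the members. Its unadjusted p was 0.0328 for the brighter SLC18A2 probe set (limma adjusted p = 0.625), 0.594 for the dimmer one and 0.252, 0.243 and 0.651 for MAOA, and 7.54% of the array had one under 0.05.

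Values of marker lists and of RNA quality controls are set here beside those of SLC18A2, and 0 markers of any list passed the limma test. The 7 serotonin neuron markers on the array (TPH2, FEV, GATA2, GATA3, GCH1, LMX1B and HTR1A, of 11 listed) had summed intensities of 1608 to 1915 with progesterone alone, against 1751 to 2758 in placebo animals, 1931 to 2502 with estrogen and 1862 to 2604 with both hormones, so that progesterone overlapped placebo and both hormones. In estrogen minus progesterone all 5 tested members of this list had higher means (median log2 difference 0.47). Over all tested probe sets 51.4% were higher in that comparison and 51.1% in both hormones minus progesterone (median 0.01 in each). The 6 markers of noradrenaline and dopamine neurons on the array, of 8 listed, summed to 1607 to 2021 with progesterone alone, against 1781 to 2650 in placebo animals, 1587 to 2243 with estrogen and 1830 to 1980 with both hormones. Of the 5 tested markers of these neurons 3 were higher in estrogen minus progesterone (median 0.47). The 5 microglia markers had lower means in estrogen minus progesterone (median -0.22, 0 of 5 higher) and in both hormones minus progesterone (median -0.41, 0 of 5 higher), and the 5 tested cerebellar markers had higher means in estrogen minus progesterone (median 0.47, 5 of 5 higher). For the control transcript EF1A, the log2 ratio of its 3′ to its 5′ probe set lay between -0.37 and -0.31 with progesterone alone, below all other arrays (-0.08 to 0.74). The same ratio of actin lay between 0.66 and 1.23 with progesterone alone, against 0.11 to 0.90 in the others, and that of GAPDH between 0.11 and 0.59, against 0.34 to 1.11. The part of these in the SLC18A2 values was not tested.

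Probe sets of the same gene were then compared across the 12 arrays. The brightest MAOA probe set and the third moved together, with a Pearson r of 0.86 (permutation p = 0.00056, adjusted over the 4 pairs to 0.00224) and a Spearman rho of 0.80 (permutation p = 0.0031, adjusted 0.0124). Without the 2 arrays farthest from the median (the third estrogen and the second progesterone array) r was 0.67, and on deviations from the group means it was 0.87. Of the other tested probe sets, 0.0417% had a higher r with the brightest MAOA probe set than the third one did.

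The second MAOA probe set was less tied to the others. Its r with the brightest was 0.61 (permutation p = 0.0356, adjusted 0.0425) and rho 0.48 (permutation p = 0.116, adjusted 0.169), and r was 0.15 without the 2 farthest arrays. The size of this r thus depended on those animals, though leaving them out also narrowed the range of the brightest probe set. With the third probe set r was 0.59 (permutation p = 0.0425, adjusted 0.0425) and rho 0.44 (permutation p = 0.155, adjusted 0.169), and r was 0.59 again without the 2 farthest arrays. Both lost their call (adjusted p above 0.05) in 8 and 9 of the 12 cases that left out 1 array, and were lowest without the third estrogen array (r = 0.30 and 0.37). Of the other tested probe sets, 3.12% had a higher r with the brightest MAOA probe set than the second one did.

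The 2 SLC18A2 probe sets correlated with an r of 0.59 (permutation p = 0.0424, adjusted 0.0425) and a rho of 0.43 (permutation p = 0.169, adjusted 0.169). Without the third estrogen and the third progesterone array, the farthest from the median, r was 0.01. The size of r thus depended on these animals, though leaving them out also narrowed the range of the brighter probe set. On deviations from the group means r was 0.73. The call was lost in 8 of the 12 cases that left out 1 array, and r was lowest, 0.29, without the third progesterone array. Of the other tested probe sets, 3.71% had a higher r with the brighter SLC18A2 probe set than the dimmer one did.

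Whether probe sets of a gene gave different group patterns was tested on the log2 difference between them in each animal, by exact permutation of the arrays. For the 3 pairs of MAOA probe sets the F statistic over the 4 groups was 0.19, 0.04 and 0.03 (exact permutation p = 0.885, 0.991 and 0.994). For SLC18A2 it was 2.96 (exact permutation p = 0.103, adjusted over the 12 such tests to 0.619). The brighter minus the dimmer SLC18A2 probe set was 1.91 ± 0.19 (SD, n = 3) with estrogen, 1.58 ± 0.10 with placebo, 1.35 ± 0.31 with progesterone alone and 1.32 ± 0.40 with both hormones. It was lower by a log2 of -0.41 in the 6 animals with progesterone than in the 6 without (two-sided exact permutation p = 0.0281, adjusted 0.338), and differed by 0.15 with estrogen (exact permutation p = 0.470, adjusted 0.994). In the 3 MAOA pairs the difference with progesterone was 0.06, 0.05 and -0.01 and with estrogen 0.07, 0.03 and -0.04 (exact permutation p from 0.660 to 0.983). No pair passed after adjustment.

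**Figure D3:**
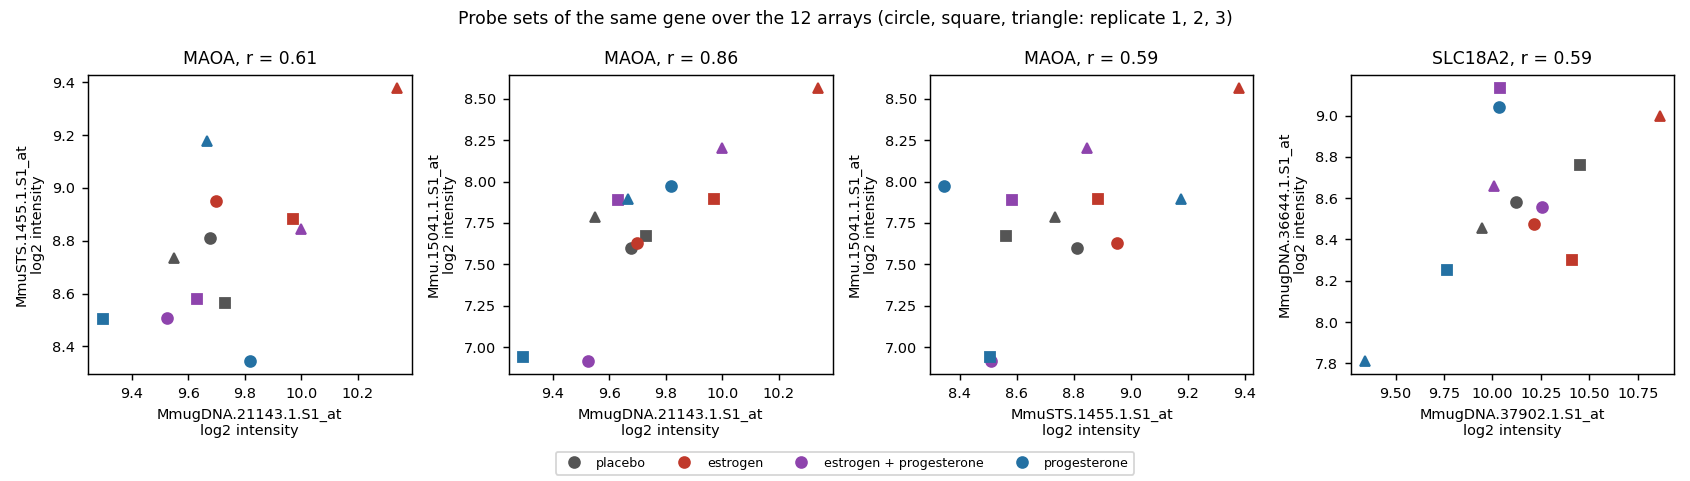
Normalized log2 intensity of 2 probe sets of the same gene plotted against each other, for the 3 MAOA pairs and the SLC18A2 pair, with 1 symbol per animal coloured by group. The brightest and the third MAOA probe set follow each other (r = 0.86), while in the SLC18A2 panel r is 0.59 with, and 0.01 without, the third estrogen and the third progesterone animal.

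Relations to other genes of monoamine neurons and glia were computed for the brightest probe set of each member, 19 in all. MAOA followed DBH, which makes noradrenaline from dopamine, with r = 0.75 (permutation p = 0.00464, adjusted 0.0441), rho = 0.80 (permutation p = 0.00332, adjusted 0.0631) and r = 0.61 without the 2 farthest arrays. The DBH log2 intensities were 4.97, 7.39 and 6.87 with placebo, 6.61, 7.58 and 8.10 with estrogen, 6.27, 6.89 and 7.81 with both hormones, and 7.20, 5.55 and 5.87 with progesterone alone. The third estrogen animal was highest for DBH as for MAOA, 4 animals lay below the highest tag control mean (6.41), and the groups overlapped. Over the alternatives the adjusted p for this pair lay between 0.00608 and 0.191, and it exceeded 0.05 in 9 of the 12 cases that left out 1 array, with r between 0.68 and 0.87 in all 12.

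With the serotonin neuron genes TPH2, FEV, GATA2 and GATA3, MAOA had r of -0.02, 0.04, 0.06 and 0.03 (permutation adjusted p = 0.951 for each), and with GCH1, which starts synthesis of the tetrahydrobiopterin cofactor, 0.52 (permutation adjusted p = 0.216). With TH r was 0.29, and with the astrocyte genes GFAP and ALDH1L1 it was 0.09 and 0.33 (permutation adjusted p from 0.553 to 0.951). The other MAOA probe sets, given with no test, did not all share these values: on the second, r was -0.54 with TPH2, -0.55 with GATA2 and 0.20 with DBH, and on the third -0.16, 0.07 and 0.68.

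SLC18A2 followed GCH1 with r = 0.73 (permutation p = 0.00358, adjusted 0.0441), rho = 0.71 (permutation p = 0.0122, adjusted 0.109) and r = 0.55 without the 2 farthest arrays. Leaving out 1 array gave an adjusted p above 0.05 in 8 of 12 cases, with r between 0.60 and 0.79. Its r with TH was 0.71 (permutation adjusted p = 0.112), with DBH 0.58 (0.173), with FEV 0.56 (0.178), with TPH2 0.50 (0.244), with GATA2 0.44 (0.316) and with GATA3 0.26 (0.654). On the dimmer SLC18A2 probe set, given with no test, the order was different, with r of 0.87 with GATA2, 0.70 with TPH2, 0.60 with TH, 0.42 with GCH1 and 0.25 with FEV. Without the third progesterone array the r of the brighter probe set with TH was 0.38, with TPH2 -0.04 and with GATA2 -0.16. For GFAP and ALDH1L1 r was 0.05 and 0.19 (permutation adjusted p = 0.951 and 0.814). Between the members themselves r was 0.63 (permutation p = 0.0320, adjusted 0.152), rho 0.49, and r 0.20 without the 2 farthest arrays.

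These relations depended on the normalization. With arrays aligned by their medians in place of quantile normalization, the median r of the brightest MAOA probe set with all other tested probe sets was 0.37 in place of 0.01, and that of SLC18A2 0.35 in place of 0.01. Under that alignment 10 of the 19 relations had an adjusted p under 0.05 in place of 2, among them MAOA with GATA3 (r = 0.67), while MAOA with DBH had r = 0.78 and SLC18A2 with GCH1 r = 0.83.

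The genes most like each member over the 12 arrays were ranked among the other tested probe sets with 1 gene name, as a description with no test. For the brighter SLC18A2 probe set the nearest of 15018 was SV2B, a glycoprotein of synaptic vesicles, with r = 0.95 and rho = 0.93. On deviations from the group means its r was 0.88. With the dimmer SLC18A2 probe set SV2B had r = 0.51. SV2A and SV2C had r of 0.47 and 0.39 with the brighter one. The SV2B log2 intensities were 9.67, 9.87 and 9.45 with placebo, 9.80, 9.96 and 10.10 with estrogen, 9.76, 9.71 and 9.44 with both hormones, and 9.51, 9.52 and 9.10 with progesterone alone. SV2B had its highest animal (the third with estrogen) and its lowest (the third with progesterone) where SLC18A2 had them. COX20, ZNF333, UBFD1 and QSOX1 followed, with r of 0.91, 0.90, 0.89 and 0.89. For MAOA the nearest of 15017 were ARHGAP36 (r = 0.90), NSMAF (0.89), GALNT13 (0.88), FKBP1B (0.87) and TAFA1 (0.86). All were taken from the top of this ranking, so the size of r is set by that choice.

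**Figure D4:**
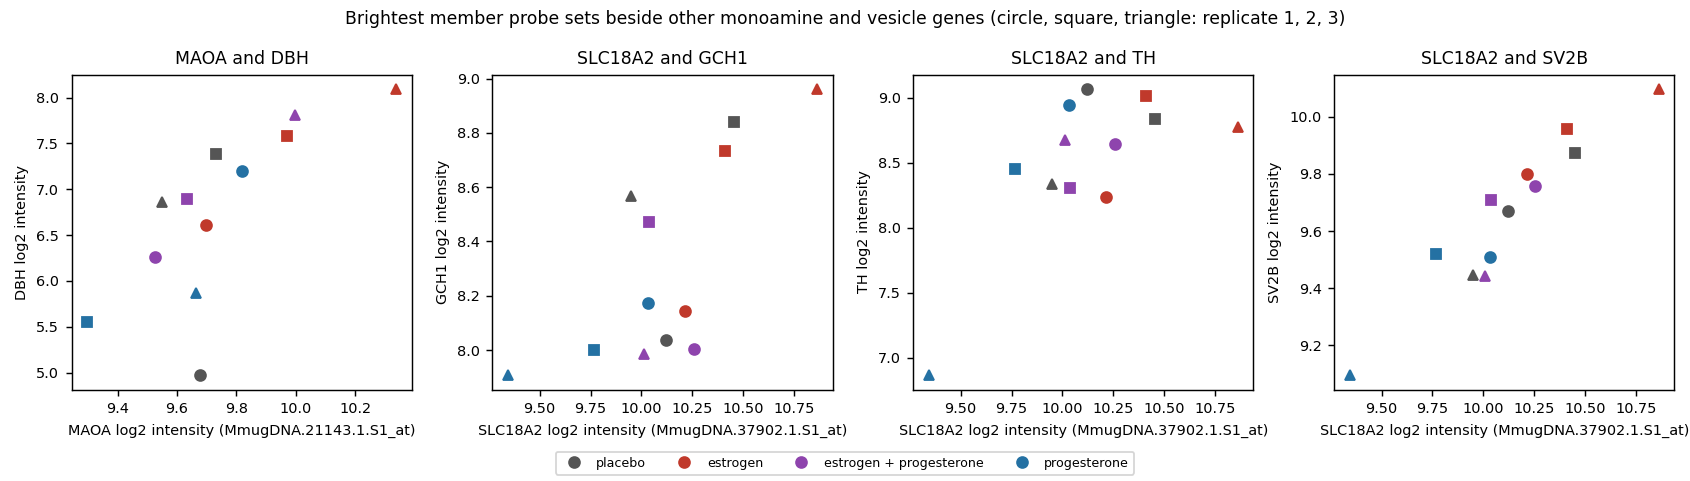
Log2 intensity of DBH against MAOA, and of GCH1, TH and SV2B against SLC18A2 (brightest probe sets), 1 symbol per animal coloured by group. DBH ranges from 4.97 to 8.10 while MAOA ranges from 9.30 to 10.34, TH has 1 animal far below the others at 6.87 (the third with progesterone), and SV2B lies close to a line with SLC18A2 (r = 0.95).

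Across the wider pathway, 0 listed genes passed the limma test in any of the 9 contrasts. Of 12 genes of monoamine synthesis 8 were tested: 6 had a higher mean than placebo with estrogen, 5 with both hormones and 3 with progesterone alone, at median log2 differences of 0.05, 0.13 and -0.33. Over all tested probe sets these medians were -0.01, -0.01 and -0.02. Under estrogen the furthest from 0 were DBH (1.02, SE 0.65) and PNMT (0.34, SE 0.33), which makes adrenaline. Under progesterone alone they were TPH2 (-0.77, SE 0.65) and TH (-0.66, SE 0.44), and with both hormones TPH2 stood at 1.06 (SE 0.65). In the placebo group DBH was 4.97 in the first animal, whose array stood apart, and 7.39 and 6.87 in the others.

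Of 11 genes of monoamine transport 5 were tested, and 2 had a higher mean in each comparison with placebo (medians -0.17, -0.07 and -0.09). The dopamine transporter of the plasma membrane, SLC6A3, differed by -1.18 (SE 0.46) under estrogen and the low-affinity monoamine transporter SLC29A4 by 0.77 (SE 0.36). SLC6A3 stood at 9.81, 8.08 and 7.76 with placebo and 7.22, 7.58 and 7.31 with estrogen. The 9.81 came from the first placebo array, which stood apart. Of 15 genes of monoamine breakdown 9 were tested, and 4, 7 and 5 were higher in the same order (medians -0.02, 0.09 and 0.02). ALDH2, the mitochondrial aldehyde dehydrogenase that acts after the oxidase, differed by 0.01, 0.09 and 0.03. In this list the furthest from 0 under estrogen were AANAT, the acetylating enzyme of melatonin synthesis (-0.56, SE 0.20), and MAOA itself. Under progesterone alone they were HNMT, which methylates histamine (-0.37, SE 0.17), and AANAT (-0.37, SE 0.20).

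Of 10 vesicle proteins and VMAT2 partners 9 were tested, and 7, 5 and 3 were higher (medians 0.08, 0.01 and -0.14). SV2B differed by 0.29, -0.03 and -0.29 (SE 0.18), beside 0.32, -0.07 and -0.46 for SLC18A2, and these comparisons all share the placebo animals. SV2B was also the gene nearest to SLC18A2 over these same arrays, so the likeness of these values is no separate result. Of 9 transcription regulators of MAOA 8 were tested, with 4, 3 and 5 higher (medians 0.00, -0.16 and 0.09). Of 8 hormone receptors 4 were tested, with 2, 4 and 2 higher (medians 0.04, 0.09 and -0.02). The estrogen receptor gene ESR1 and the progesterone receptor gene PGR, at mean log2 intensities of 4.97 and 2.82, lay below the filter and were not tested. Of 11 serotonin neuron genes 5 were tested, with 2, 3 and 0 higher (medians -0.02, 0.02 and -0.45).

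**Figure D5:**
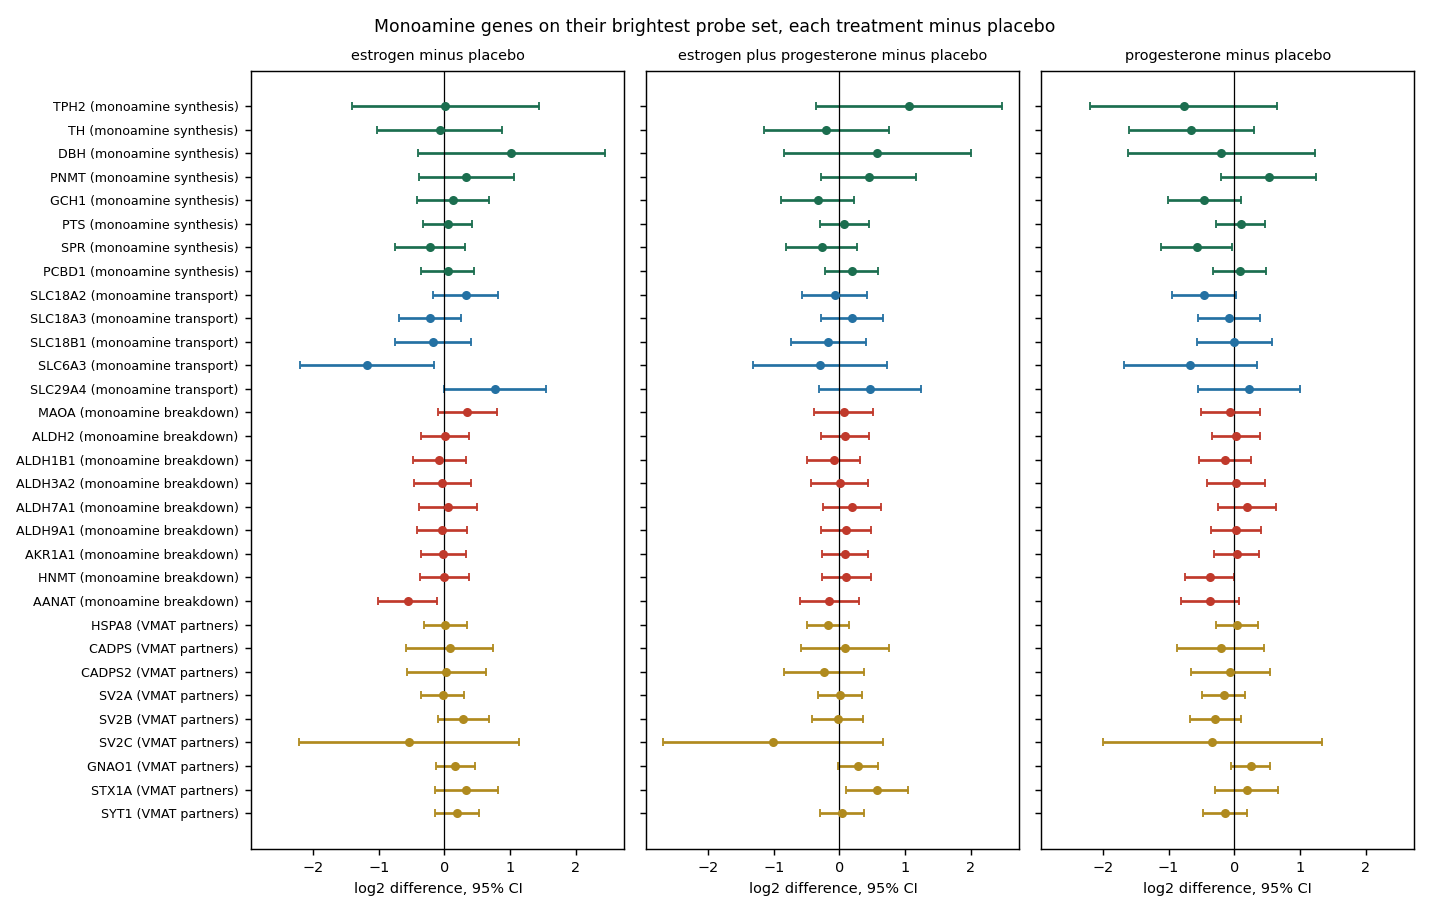
Log2 difference from placebo (x axis) with 95% confidence interval for each tested gene of monoamine synthesis, transport, breakdown and VMAT2 partners on its brightest probe set (y axis), in 1 panel per treatment. MAOA lies at 0.35, 0.07 and -0.06 and SLC18A2 at 0.32, -0.07 and -0.46, and no gene passed the test after adjustment over the array.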

How the data were processed

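RNA was labelled with biotin and read on a single-colour rhesus array, per the labels. Deposited per probe set was a linear intensity, already brought by the authors to a trimmed mean (2% cut at each end) of 200.01 on each array, with software not given in the sources used here. After removal of 99 controls, a floor was placed at the 5th percentile (intensity 4.99), values were log2 transformed and quantile normalized, and probe sets with a mean log2 of at least 6.31 were tested with limma 3.58.1 (lmFit and eBayes, 1 mean per group, 12 arrays) in R 4.3.3. P-values were two-sided and Benjamini-Hochberg adjusted over all 26383, with a threshold of 0.05. SE values are those of the fit. Correlations used 100000 permutations, and differences between probe sets exact permutations, in Python 3.11.15 with scipy 1.17.1; figures used matplotlib 3.10.9. The fit was tested on simulated data. Gene names came from the platform's table: 24956 probe sets had 1 symbol, 361 several and 27449 none. An array gives no read depth, and each group had 3 animals.

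Deviations from the group means were checked for pairing by replicate number. Same-numbered arrays correlated by 0.103 to 0.274 between both hormones and placebo and by 0.142 to 0.507 between both hormones and estrogen, all above 0.1. Arrays with different numbers correlated by -0.254 to 0.115 and by -0.408 to 0.267, so the ranges overlapped. The highest same-numbered value in each of these pairs of groups, 0.274 and 0.507, came from the first arrays, which stood apart. Between placebo and estrogen same-numbered arrays correlated by 0.024 to 0.277. Between progesterone alone and the others they correlated by -0.244 to -0.105 (placebo), -0.156 to 0.030 (estrogen) and -0.260 to -0.080 (both hormones). The data therefore do not establish a pairing. Differences by replicate number are given, as values, only for both hormones with placebo and with estrogen, where each same-numbered r lay above 0.1. The reported fit has no block. Named were all member probe sets, listed genes furthest from 0, the correlation partners and the 5 genes most like each member. Members and lists were chosen with earlier results of these data known. Sequences were not used here, and of the partner genes DDC, AQP4 and MOBP had no probe set under their names.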

Additional observations from a re-analysis of the deposited data

How the results depend on the processing

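Of the member differences, 36 were followed under the alternatives. The dimmer MAOA and SLC18A2 probe sets were left out for both hormones minus progesterone, the estrogen main effect and the interaction. How those differences moved is therefore not part of the counts given here. The 36 gave 759 values: 721 kept their direction and side of the threshold, and 0 passed (lowest limma adjusted p = 0.164). The 38 that turned direction came from reported values between -0.36 and 0.22. The replicate block changed no member call; it gave 20, 19 and 2 called probe sets in progesterone minus placebo (35 without it), estrogen minus progesterone (35) and the progesterone main effect (0). The cause of the changes below was not tested.

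Called probe sets moved as follows. Estrogen minus placebo and both hormones minus placebo had 1 with no filter. Progesterone minus placebo had 54 on log2(value + 16) and 0 when each gene kept its brightest probe set or with only the arrays compared. Both hormones minus progesterone (22) had 4 with a filter at the 75th percentile, 0 with brightest probe sets and 44 with array weights. Estrogen minus progesterone had 23 with median alignment, 21 with no filter, 15 at the 75th percentile, 4 with brightest probe sets, 56 with array weights and 72 without the 3 arrays apart. Array weights gave 6 for the estrogen and 1 for the progesterone main effect, and leaving out the 3 arrays gave 1 for estrogen. The F test (20) had 13 with median alignment, 4 at the 75th percentile, 0 with brightest probe sets and 34 without the 3 arrays. Leaving out 1 array at a time gave 0 to 1 in estrogen minus placebo, both hormones minus estrogen and the estrogen main effect, 5 (without the second placebo array) to 55 in progesterone minus placebo, 0 (without the second progesterone array) to 47 in both hormones minus progesterone, 10 to 58 in estrogen minus progesterone, 0 to 8 for the progesterone main effect, 0 to 4 for the interaction and 0 to 29 for the F test.

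Turned directions were these, in log2. Without the 3 arrays apart, both hormones minus placebo was 0.065 and 0.32 on the second and the third MAOA probe set (0.030 and 0.21 with array weights), progesterone minus placebo 0.025 on the second, the SLC18A2 interaction -0.12, and on the dimmer SLC18A2 probe set estrogen minus placebo 0.042 (0.032 with median alignment) and the progesterone main effect 0.0025 (0.020 with array weights). With 1 array left out, estrogen minus placebo on the dimmer SLC18A2 probe set lay between -0.21 and 0.14, its progesterone minus placebo between -0.56 and 0.048, its estrogen minus progesterone between -0.055 and 0.56 and its progesterone main effect between -0.19 and 0.12. For the brighter one, both hormones minus placebo lay between -0.18 and 0.067 and the interaction between -0.12 and 0.25. For MAOA, both hormones minus placebo lay between -0.073 and 0.16, -0.16 and 0.011, and -0.28 and 0.36 on the 3 probe sets, progesterone minus placebo between -0.17 and 0.089, -0.28 and 0.14, and -0.27 and 0.25, both hormones minus estrogen on the third between -0.62 and 0.016, and both hormones minus progesterone on the brightest between -0.023 and 0.24.

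Agreement between probe sets lost its call without the 3 arrays apart for the second MAOA probe set (r = 0.61 and 0.61) and SLC18A2 (0.61). With 1 array left out, r lay between 0.30 and 0.73, 0.37 and 0.75, and 0.29 and 0.71. Of the 19 partner relations 2 passed, 10 with median alignment and 0 to 2 with 1 array left out. MAOA with TPH2 turned to 0.20 with median alignment, and without the 3 arrays MAOA with TPH2, GATA3 and GFAP had r of 0.093, -0.0046 and -0.012. With 1 array left out, r lay between -0.15 and 0.12 for MAOA with TPH2, -0.026 and 0.12 with GATA3, -0.25 and 0.17 with FEV, -0.050 and 0.16 with GATA2, and for SLC18A2 between -0.14 and 0.10 with GFAP, -0.036 and 0.62 with TPH2, -0.16 and 0.53 with GATA2, and -0.10 and 0.31 with ALDH1L1. Differences between MAOA probe sets by progesterone were -0.0013 (median alignment, the brightest minus the third) and, without the 3 arrays, -0.016, -0.016 and 8.4e-05, and by estrogen -0.11 (the brightest minus the third). With 1 array left out they lay between -0.040 and 0.16, -0.067 and 0.11, and -0.12 and 0.12 by progesterone and between -0.021 and 0.18, -0.088 and 0.11, and -0.17 and 0.066 by estrogen. No test in this family passed under any of these settings.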

Other observations

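Further noradrenaline neuron genes were set beside MAOA after the relation to DBH had been seen, so they are given as values with no test. SLC6A2, the noradrenaline transporter, had an r over the 12 arrays of 0.86 with the brightest MAOA probe set, 0.45 with the second and 0.87 with the third, although its mean log2 intensity of 6.02 lay below the filter. PHOX2A, a transcription factor of noradrenaline neurons, had r of 0.62, 0.53 and 0.82, and DBH 0.75, 0.20 and 0.68. TH, which noradrenaline and dopamine neurons both use, had r of 0.29, -0.36 and 0.02. SLC6A3, which marks dopamine neurons, had r of -0.45, -0.40 and -0.54. In the third estrogen animal SLC6A2, PHOX2A and DBH stood at 7.53, 7.76 and 8.10 on the log2 scale, their highest values among the 12, as did all 3 MAOA probe sets. For SLC18A2 the r with SLC6A2 was 0.43 and 0.34 on the brighter and the dimmer probe set, and with TH 0.71 and 0.60.

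Over the whole array the third estrogen animal held the highest value of the 12 for 7.53% of tested probe sets, and for 4 of the 5 member probe sets. The third progesterone animal held the lowest value for 12.7% of tested probe sets, and for both SLC18A2 probe sets.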
